A study of Mus musculus with 8 samples.

Results

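The genes described here are the 48 that encode the core DNA replication machinery, out of 23234 genes listed in each of 8 mouse embryo libraries. They were taken by name from a list of subunits and factors: the origin recognition complex (ORC), the licensing factors, the MCM2-7 helicase, the factors that activate it, GINS, the clamp and its loader, the single-strand binding protein RPA, the polymerases, the enzymes that finish the lagging strand, and the enzymes that supply nucleotides. All 48 names were listed and all 48 were tested. Their expression was compared between blastocysts and 2-cell embryos, and between embryos from Tet3-null and wild-type oocytes at each stage.

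Before S phase, ORC marks origins and, with Cdc6 and Cdt1, loads the MCM2-7 helicase onto DNA, a step that geminin blocks by binding Cdt1. In S phase the Cdc7-Dbf4 kinase and cyclin-dependent kinases turn the loaded helicase on through Cdc45 and GINS, polymerase alpha with primase lays down primers, and polymerases epsilon and delta extend them on the PCNA clamp. The first S phases of a mouse embryo run on proteins and transcripts stored in the oocyte, and the embryo's own genome takes over transcription at about the 2-cell stage.

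The Tet3-null groups came from oocytes of Zp3-Cre, f/- females, with 1 floxed and 1 deleted copy of Tet3 and Zp3-Cre, a Cre transgene that is active in growing oocytes. The wild-type groups came from f/f females, and the labels do not say whether these carried Cre. Tet3 is the dioxygenase that oxidises 5-methylcytosine in the zygote. Both kinds of oocyte, from superovulated females whose age is not given, were fertilised in vitro with CAST/EiJ sperm, so the paternal Tet3 copy of every embryo came from that strain. Pools of 7 blastocysts were taken at 96 h after fertilisation and pools of 10 2-cell embryos at 30 h, with 2 libraries in each of the 4 groups. Whether the pools of a group were collected separately is not in the labels. The p-values therefore reflect the spread between pools, part or all of which may be technical.

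Values are FPKM, fragment counts divided by transcript length and by each library's mapped fragments, so levels of different genes can be set side by side. Read totals are unknown. Between 10607 and 11660 genes reached 1 FPKM in a library. Tet3 itself was at 3.285 and 4.41 FPKM in the Tet3-null 2-cell libraries, against 10.8 and 7.54 FPKM in the wild-type ones (log2 change -1.06, SE 0.25, limma adjusted p = 0.069). Tet3 was thus still detected in both Tet3-null 2-cell libraries and its lower level was not called. These FPKM do not separate reads of the deleted part of the gene from the rest, and Tet3-null is used here as the name that the labels give the oocytes. In blastocysts its 4 libraries had 0.412 to 0.9565 FPKM. Tet3-null 2-cell replicate 2 stood apart from the rest of its stage. Its Pearson correlation across genes with the other 2-cell libraries was 0.926 to 0.943, against 0.956 to 0.963 among those 3, and it listed 7101 genes at 0 where they listed 5549 to 6080. The stage labels matched their markers: the summed FPKM of 6 genes of the 2-cell stage was 1.72 to 5.28 in blastocysts and 1041 to 1926 in 2-cell embryos, and 5 trophectoderm genes summed to 2716 to 4496 FPKM in blastocysts and 38.9 to 53.8 FPKM in 2-cell embryos. The 5 markers of cumulus and granulosa cells summed to at most 1.21 FPKM in any library.

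All of the replication genes except Pold1, Pold2 and Lig1 reached 1 FPKM in all 8 libraries, and those 3 did so in all 4 blastocyst libraries. The median of the 48 genes was 45.1 to 51.7 FPKM in the 4 blastocyst libraries and 14.4 to 19.7 FPKM in the 4 2-cell libraries, while the median of all 13549 genes tested was 4.97 to 5.52 FPKM in blastocysts and 4.62 to 5.65 FPKM in 2-cell embryos. Gmnn, which encodes geminin, had the highest level of the list at the 2-cell stage, and Rrm2, the small subunit of ribonucleotide reductase, the highest in blastocysts. Pold1, the catalytic subunit of polymerase delta, was the lowest at the 2-cell stage. It was under 1 FPKM in all 4 2-cell libraries and entered the test through the blastocyst libraries alone, so its stage difference follows in part from the filter.

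**Figure D1:**
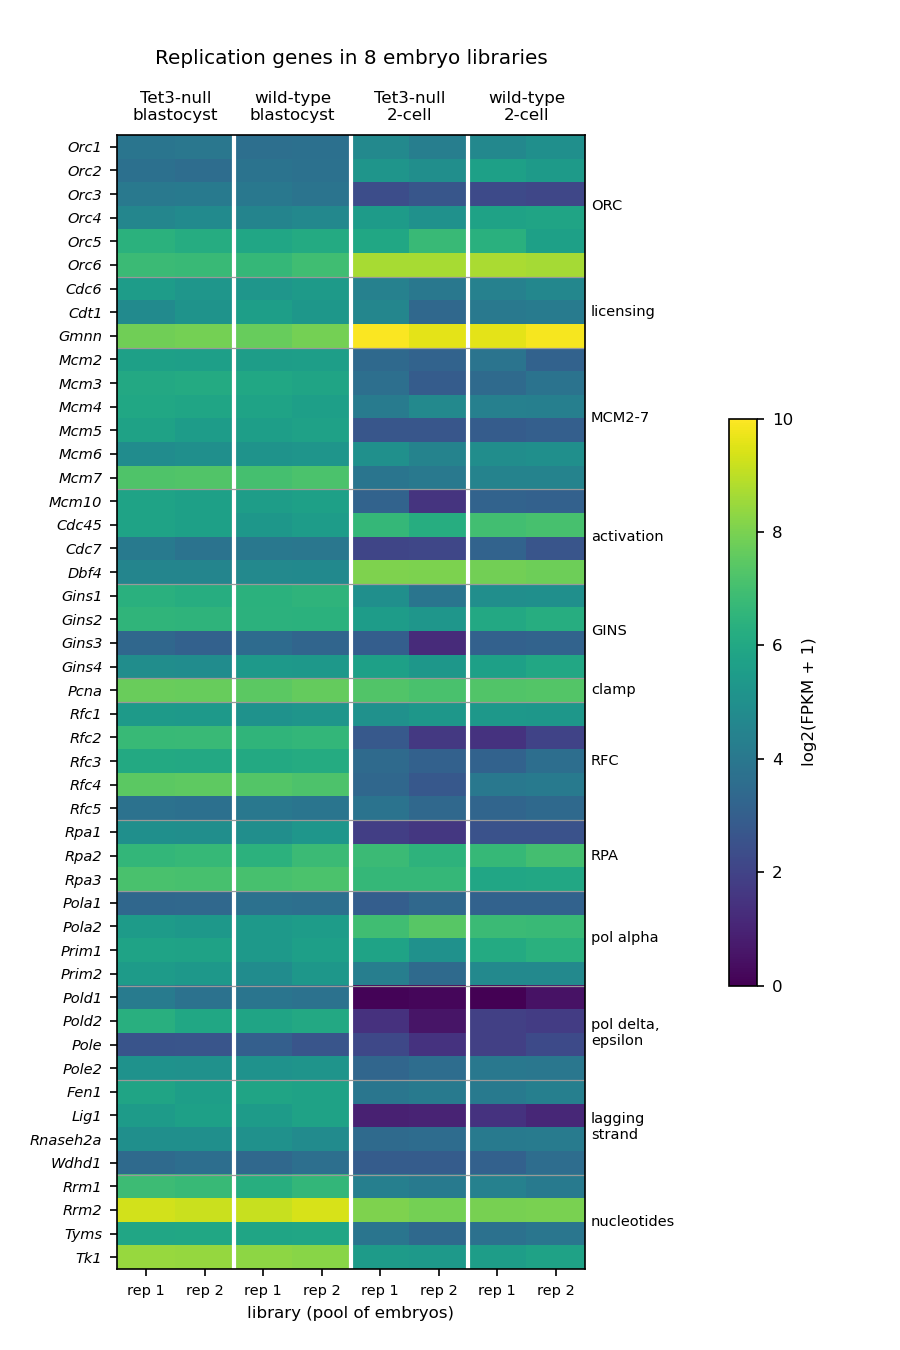
Levels of the 48 replication genes in 8 libraries, as log2(FPKM + 1), one row per gene grouped by complex or step and one column per library. Columns of the same stage look alike whatever the oocyte genotype, and Gmnn, Orc6, Dbf4 and Pola2 are among the rows that are brighter on the 2-cell side.

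Between stages, most replication genes were at a higher level in blastocysts, and a smaller set, made up of most of ORC, geminin, Dbf4, Cdc45, Pola2 and Gins4, was at a lower level. Tests used log2(FPKM + 1) of the 13549 genes that reached 1 FPKM in 2 or more libraries, fitted together in limma, and a gene was called at an adjusted p under 0.05. In Tet3-null embryos 31 of the 48 genes were called higher in blastocysts (64.6%, against 38.9% of all genes) and 9 lower (18.8%, against 35.1%). In wild-type embryos 29 were called higher (60.4%, against 35.8% of all genes) and 10 lower (20.8%, against 38.4%). The share called in either direction, 83.3% in Tet3-null and 81.2% in wild-type embryos, was nearer to that of all genes (74% and 74.3%), while the share called higher was above that of all genes. The median change of the 48 genes was 1.22 in Tet3-null and 0.95 in wild-type embryos on the log2 scale, against 0.09 and -0.08 for all genes. The 2 comparisons share no library, but they were fitted together and share the estimate of spread, so they are not independent tests. In both of them 27 genes were higher (56.2% of the list, against 33.4% of all genes) and 9 were lower (18.8%, against 32.4%). Left out of both were 5 genes: Orc5, Mcm6, Gins3, Rfc1 and Rpa2. Of the 27 genes higher in both, 22 kept both calls under every alternative tried, and Cdc6, Cdt1, Rpa3, Pole and Rnaseh2a did not. Of the 9 lower in both, 5 kept both calls (Orc2, Orc6, Gmnn, Dbf4 and Pola2), and Orc1, Orc4, Cdc45 and Gins4 did not. These are levels per pool relative to the mapped fragments of the pool, and fewer expressing cells and less RNA per cell cannot be told apart in them. The FPKM of a library summed to 924556 to 956335 in blastocysts and 600495 to 634816 in 2-cell embryos. The main test did not scale them to a common sum, so a gene with the same share of the sum had a higher FPKM in blastocysts. Below, leaving small RNA genes out of the scaling means that those genes were dropped and all libraries were then set to the same sum.

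**Figure D2:**
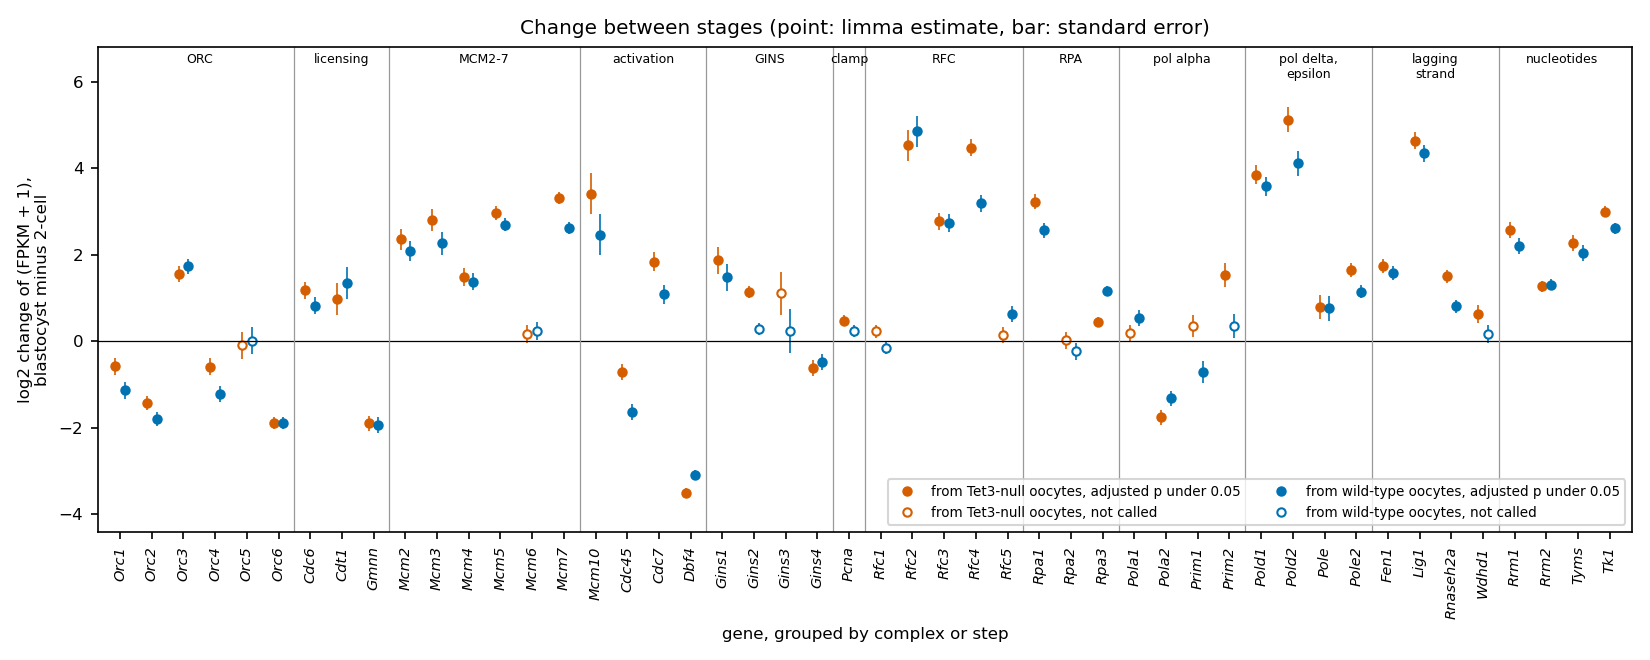
Change between stages for each of the 48 genes, as the limma estimate of log2(FPKM + 1) in blastocysts minus 2-cell embryos with its standard error, for embryos from Tet3-null (orange, left of each pair) and wild-type oocytes (blue). Filled points were called; Rfc2, Rfc4, Pold1, Pold2 and Lig1 lie above 3, and Dbf4 below -3, in both genotypes.

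Of the 6 ORC subunits, which bind origins, 4 were lower in blastocysts in both genotypes, Orc3 was higher and Orc5 was not called. Orc6, the smallest subunit, had 111 and 109 FPKM in Tet3-null blastocysts and 99.7 and 120.1 FPKM in wild-type ones, against 409.6 and 411 FPKM in Tet3-null 2-cell embryos and 418 and 399.9 FPKM in wild-type ones. Orc2 had 12.1 and 10.9 FPKM in Tet3-null blastocysts and 13.01 and 12.1 FPKM in wild-type ones, against 35.7 and 29.9 FPKM in Tet3-null 2-cell embryos and 49.9 and 42.7 FPKM in wild-type ones. Every blastocyst library was below every 2-cell library for both genes. By mean FPKM Orc6 was 3.72-fold lower in Tet3-null and 3.72-fold lower in wild-type blastocysts (log2 change -1.89 and -1.89, SE 0.13 for each, adjusted p = 1.42e-05 and 1.53e-05). For Orc2 the log2 change was -1.43 in Tet3-null and -1.80 in wild-type embryos (SE 0.17, adjusted p = 0.000171 and 5.71e-05). Orc1, an ATPase subunit, had 11.5 to 14.5 FPKM in the 4 blastocyst libraries and 18.2 to 30.2 FPKM in the 4 2-cell libraries, and Orc4, which also binds ATP, 21.9 to 26.5 FPKM in the 4 blastocyst libraries and 31.9 to 56.1 FPKM in the 4 2-cell libraries. The Tet3-null calls of Orc1 and Orc4 were lost without Tet3-null 2-cell replicate 1 (adjusted p = 0.105 and 0.0641) and without Tet3-null blastocyst replicate 1 (0.13 and 0.132), and that of Orc1 also without any of the other 3 blastocyst libraries (0.0566 to 0.0919). The subunit that went the other way, Orc3, had 13.4 to 16.55 FPKM in the 4 blastocyst libraries and 3.375 to 5.41 FPKM in the 4 2-cell libraries, 3.325-fold higher in Tet3-null and 3.98-fold higher in wild-type blastocysts. Orc5 had 59.6 to 81.7 FPKM in the 4 blastocyst libraries and 50.5 to 108 FPKM in the 4 2-cell libraries, and its stages overlapped.

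Promoters of ORC and MCM2-7 genes are shown here because subunits of the same complex differed in their change between stages. Of the 12 genes, 11 had a RefSeq promoter and 6 of these held a match to the motif described next. Printed are the 5 with a match before the start, and 1 of those without, Orc6. In each stretch of 250 bases before the RefSeq transcription start (GRCm38.p6), capitals mark the letters of an E2F consensus, the site read by the E2F factors that control genes of S phase. The forms searched were TTTCCCGC, TTTCGCGC, TTTGCCGC and TTTGGCGC on either strand. Orc3 (chr4:34614943-34615192, minus strand) was higher in blastocysts and Orc1 (chr4:108579204-108579453, plus strand) lower. Orc6 (chr8:85299382-85299631, plus strand) was lower too, and its stretch holds none of these forms.
Orc3: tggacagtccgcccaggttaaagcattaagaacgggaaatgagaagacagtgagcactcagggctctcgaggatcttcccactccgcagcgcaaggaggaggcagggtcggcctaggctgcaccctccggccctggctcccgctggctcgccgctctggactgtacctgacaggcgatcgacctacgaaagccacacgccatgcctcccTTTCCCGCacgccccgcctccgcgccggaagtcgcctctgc
Orc1: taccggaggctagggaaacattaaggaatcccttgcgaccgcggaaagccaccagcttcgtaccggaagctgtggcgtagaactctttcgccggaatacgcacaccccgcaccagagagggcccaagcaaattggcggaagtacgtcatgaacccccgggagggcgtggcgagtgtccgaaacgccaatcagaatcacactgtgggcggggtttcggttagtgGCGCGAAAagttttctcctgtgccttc
Orc6: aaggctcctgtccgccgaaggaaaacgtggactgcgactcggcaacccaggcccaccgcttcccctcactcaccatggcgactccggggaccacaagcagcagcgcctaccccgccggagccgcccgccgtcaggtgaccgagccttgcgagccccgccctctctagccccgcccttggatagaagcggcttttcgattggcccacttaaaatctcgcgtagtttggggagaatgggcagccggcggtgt
Mcm7 (chr5:138171884-138172133, minus strand) and Mcm5 (chr8:75109259-75109508, plus strand) were higher in blastocysts, and Mcm6 (chr1:128359706-128359955, minus strand) was not called. In Mcm5 and in the first run of Mcm6, matches on the 2 strands overlap. The starts of Mcm5 and Mcm6 were not found in a GENCODE transcript of the gene, so their windows are less certain.
Mcm7: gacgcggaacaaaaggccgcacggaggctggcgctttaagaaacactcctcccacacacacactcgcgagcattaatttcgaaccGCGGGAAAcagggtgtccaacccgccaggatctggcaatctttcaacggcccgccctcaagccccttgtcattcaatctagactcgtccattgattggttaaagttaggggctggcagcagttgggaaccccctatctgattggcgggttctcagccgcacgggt
Mcm5: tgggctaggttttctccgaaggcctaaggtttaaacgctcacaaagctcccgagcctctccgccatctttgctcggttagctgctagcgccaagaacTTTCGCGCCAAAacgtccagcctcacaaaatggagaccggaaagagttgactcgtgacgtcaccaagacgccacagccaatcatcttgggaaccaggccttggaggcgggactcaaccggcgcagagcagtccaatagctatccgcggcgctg
Mcm6: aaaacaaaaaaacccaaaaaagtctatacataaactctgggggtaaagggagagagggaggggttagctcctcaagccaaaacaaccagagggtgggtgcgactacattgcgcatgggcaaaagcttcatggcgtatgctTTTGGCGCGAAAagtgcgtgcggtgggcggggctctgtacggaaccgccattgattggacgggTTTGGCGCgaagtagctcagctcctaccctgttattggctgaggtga

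A match to this consensus was more frequent around the starts of the replication genes than around those of genes at large. RefSeq promoters, 250 bases before to 50 after the start, were at hand for 40 of the 48 genes, and 14 of the 40 (35%) held a match, against 704 of 27025 genes (2.6%). Of the genes higher in blastocysts in both genotypes 10 of 23 held a match (43.5%), among them Cdc6, Mcm3, Mcm5, Mcm7, Rfc3, Pold1 and Lig1. Of those lower in both it was 1 of 7 (14.3%), Orc1, and of the rest 3 of 10 (30%), Gins3, Mcm6 and Pola1. In Cdt1, Mcm3, Pold1, Pole2 and Lig1 the matches lay only after the start. A match is a string of letters and was not set against binding data, and matches are thus found in genes of all 3 stage patterns.

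Of the licensing factors, the inhibitor Gmnn was lower in blastocysts, while the loaders Cdc6 and Cdt1 were called higher, with calls that did not hold under every scaling. Gmnn, which encodes geminin, had 225 and 241 FPKM in Tet3-null blastocysts and 204 and 239 FPKM in wild-type ones, against 989.7 and 762 FPKM in Tet3-null 2-cell embryos and 768 and 938 FPKM in wild-type ones. It was in the top 1% of genes at the 2-cell stage, at percentile 99.2, and at percentile 95.5 in blastocysts. The 2 stages did not overlap, and Gmnn was 3.76-fold lower in Tet3-null and 3.845-fold lower in wild-type blastocysts (log2 change -1.90 and -1.94, SE 0.17, adjusted p = 5.55e-05 and 5.44e-05). Cdc6, a loader of MCM2-7, had 37.2 to 44.7 FPKM in the 4 blastocyst libraries and 15.2 to 24.02 FPKM in the 4 2-cell libraries and was higher in blastocysts of both genotypes (2.33-fold in Tet3-null and 1.80-fold in wild-type). Its wild-type call was lost with small RNA genes left out of the scaling (log2 change 0.31, adjusted p = 0.163). Cdt1, the loader that geminin binds, had 26.8 and 34.3 FPKM in Tet3-null blastocysts and 47.4 and 38.4 FPKM in wild-type ones, against 23.2 and 9.40 FPKM in Tet3-null 2-cell embryos and 15.65 and 16.7 FPKM in wild-type ones. Its 2-cell libraries differed most from each other within the Tet3-null group, and it was called higher in blastocysts of both genotypes (adjusted p = 0.0447 and 0.0128). The Tet3-null call of Cdt1 was lost under all 3 other scalings (adjusted p = 0.0569 to 0.257) and without any single library except Tet3-null 2-cell replicate 1 (0.069 to 0.187). The wild-type call was lost with small RNA genes left out (0.059), without either wild-type 2-cell library (0.0506 and 0.062) and without wild-type blastocyst replicate 1 (0.0751).

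Of the 6 subunits of the MCM2-7 helicase, 5 were higher in blastocysts of both genotypes and Mcm6 was not called. Mcm5 had 53.4 and 45.4 FPKM in Tet3-null blastocysts and 47.4 and 52.2 FPKM in wild-type ones, against 5.46 and 5.43 FPKM in Tet3-null 2-cell embryos and 6.48 and 7.22 FPKM in wild-type ones. Mcm7 had 150.5 and 157 FPKM in Tet3-null blastocysts and 132 and 142.5 FPKM in wild-type ones, against 13.8 and 15.45 FPKM in Tet3-null 2-cell embryos and 21.4 and 21.4 FPKM in wild-type ones. The stages were far apart for both genes, and the fold of mean FPKM was 9.07 in Tet3-null and 7.27 in wild-type embryos for Mcm5 and 10.5 and 6.40 for Mcm7. On the log2 scale Mcm7 changed by 3.31 in Tet3-null and 2.62 in wild-type embryos (SE 0.13, adjusted p = 1.41e-06 and 4.11e-06). Mcm2, Mcm3 and Mcm4 were 5.56-fold, 7.37-fold and 2.84-fold higher in Tet3-null blastocysts, and 4.42-fold, 5.10-fold and 2.69-fold higher in wild-type blastocysts. Mcm6, another subunit of the same ring, had 28.2 and 30.2 FPKM in Tet3-null blastocysts and 33.95 and 36.3 FPKM in wild-type ones, against 31.8 and 20.9 FPKM in Tet3-null 2-cell embryos and 28.6 and 30.8 FPKM in wild-type ones. It was the most abundant of the 6 in 2-cell embryos and the least abundant in blastocysts. Its log2 change was 0.17 in Tet3-null and 0.24 in wild-type embryos (adjusted p = 0.469 and 0.326). With small RNA genes left out of the scaling these changes were -0.35 and -0.28, still not called, and without Tet3-null 2-cell replicate 1 that in Tet3-null was 0.46 and called (adjusted p = 0.0183).

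The factors that switch the helicase on went both ways, and the 2 partners of the Cdc7 kinase went opposite ways. Dbf4, the regulatory subunit, had 22.1 and 22.6 FPKM in Tet3-null blastocysts and 24.9 and 25.8 FPKM in wild-type ones, against 266 and 263 FPKM in Tet3-null 2-cell embryos and 231 and 218 FPKM in wild-type ones. Cdc7, the catalytic subunit, had 16.3 and 12.95 FPKM in Tet3-null blastocysts and 15.04 and 14.6 FPKM in wild-type ones, against 3.29 and 3.38 FPKM in Tet3-null 2-cell embryos and 7.996 and 5.20 FPKM in wild-type ones. Dbf4 was the gene of the list with the largest decrease in blastocysts in both genotypes, 11.8-fold lower in Tet3-null and 8.85-fold lower in wild-type (log2 change -3.50 and -3.10, SE 0.12, adjusted p = 8.75e-07 and 1.56e-06). Cdc7 was 4.39-fold and 2.245-fold higher in blastocysts of the same 2 genotypes. Mcm10, which is needed to start the helicase, had 55.01 and 50.9 FPKM in Tet3-null blastocysts and 45.95 and 50.3 FPKM in wild-type ones, against 8.15 and 1.82 FPKM in Tet3-null 2-cell embryos and 8.20 and 7.68 FPKM in wild-type ones. Its lowest value, by a wide margin, was that of Tet3-null 2-cell replicate 2, and it was called higher in blastocysts of both genotypes (log2 change 3.41 and 2.46, SE 0.47, adjusted p = 0.000454 and 0.00244). Cdc45, a part of the active helicase, had 54.5 and 50.1 FPKM in Tet3-null blastocysts and 38.6 and 44.7 FPKM in wild-type ones, against 101 and 73.1 FPKM in Tet3-null 2-cell embryos and 125 and 137 FPKM in wild-type ones. All blastocyst libraries were below all 2-cell libraries (log2 change -0.71 and -1.63, SE 0.18, adjusted p = 0.0102 and 0.000167). The Tet3-null call for Cdc45 was lost without Tet3-null blastocyst replicate 2 (adjusted p = 0.0627).

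GINS, the 4-subunit complex that completes the active helicase, had no common direction between stages. Gins1 had 74.6 to 90.2 FPKM in the 4 blastocyst libraries and 13.6 to 30.6 FPKM in the 4 2-cell libraries and was higher in blastocysts of both genotypes. Gins4 had 27.8 to 41.1 FPKM in the 4 blastocyst libraries and 38.1 to 63.5 FPKM in the 4 2-cell libraries and was lower in both (log2 change -0.61 in Tet3-null and -0.48 in wild-type, adjusted p = 0.0182 and 0.0473). The Tet3-null call of Gins4 was lost without Tet3-null 2-cell replicate 1 or either Tet3-null blastocyst library (adjusted p = 0.0557 to 0.0815), and the wild-type call without wild-type 2-cell replicate 2 or any blastocyst library (0.0796 to 0.231) and under median-of-ratios scaling (0.0539). Gins2 had 91.2 and 90.6 FPKM in Tet3-null blastocysts and 85.8 and 82.4 FPKM in wild-type ones, against 44.65 and 37.3 FPKM in Tet3-null 2-cell embryos and 64.4 and 73.4 FPKM in wild-type ones. It was called higher in Tet3-null blastocysts (adjusted p = 0.000297) and not in wild-type blastocysts (adjusted p = 0.111). The wild-type call was made under median-of-ratios scaling (adjusted p = 0.0393) and without either Tet3-null 2-cell library (0.0384). The difference between the changes of Gins2 in the 2 genotypes was not called (log2 0.85, adjusted p = 0.181). Gins3 was the least abundant subunit at both stages, with 7.71 to 10.4 FPKM in the 4 blastocyst libraries and 1.34 to 8.19 FPKM in the 4 2-cell libraries. Its stages were not called apart (log2 change 1.11 in Tet3-null and 0.23 in wild-type, adjusted p = 0.0815 and 0.69). Without Tet3-null 2-cell replicate 1 the Tet3-null change of Gins3 was 1.99.

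PCNA, the sliding clamp, was abundant at both stages. Of the loader that places it, the small subunits Rfc2, Rfc3 and Rfc4 were 7.14-fold to 39.8-fold higher in blastocysts, while Rfc1 was not called and Rfc5 was called in wild-type embryos. Pcna had 176 to 207 FPKM in the 4 blastocyst libraries and 137 to 161 FPKM in the 4 2-cell libraries. It was called higher in Tet3-null blastocysts (log2 change 0.48, adjusted p = 0.0118) and not in wild-type blastocysts (0.24, adjusted p = 0.135). The Tet3-null call was lost under all 3 other scalings, and the change was -0.003 under quantile normalisation and -0.06 with small RNA genes left out of the scaling. Rfc4, a small subunit of replication factor C, had 179.5 and 185 FPKM in Tet3-null blastocysts and 158 and 149 FPKM in wild-type ones, against 9.01 and 5.81 FPKM in Tet3-null 2-cell embryos and 15.3 and 16.55 FPKM in wild-type ones. Rfc2, another small subunit, had 106 and 107 FPKM in Tet3-null blastocysts and 93.05 and 97.8 FPKM in wild-type ones, against 5.87 and 2.165 FPKM in Tet3-null 2-cell embryos and 1.78 and 3.01 FPKM in wild-type ones. Both genes were lower in every 2-cell library than in any blastocyst library. The fold of mean FPKM was 26.5 in Tet3-null and 39.8 in wild-type embryos for Rfc2 (log2 change 4.53 and 4.85, SE 0.35, adjusted p = 2.49e-05 and 1.98e-05). For Rfc4 it was 24.6 and 9.64 (log2 change 4.47 and 3.19, SE 0.20, adjusted p = 2.07e-06 and 9.43e-06). Rfc3 was also higher in blastocysts of both genotypes, with 64.4 to 69.5 FPKM in the 4 blastocyst libraries and 7.66 to 11.1 FPKM in the 4 2-cell libraries (7.44-fold and 7.14-fold; log2 change 2.77 and 2.73, adjusted p = 1.76e-05 and 2.07e-05). Rfc1, the large subunit, had 33.2 to 42.3 FPKM in the 4 blastocyst libraries and 32.55 to 38.9 FPKM in the 4 2-cell libraries and was not called. With small RNA genes left out of the scaling it was called lower in wild-type blastocysts (log2 change -0.67, adjusted p = 0.00447), and without Tet3-null 2-cell replicate 2 it was called higher in Tet3-null blastocysts (0.34, adjusted p = 0.0412). Rfc5, a small subunit, had 12.03 to 15.3 FPKM in the 4 blastocyst libraries and 8.67 to 12.9 FPKM in the 4 2-cell libraries and was called higher in wild-type blastocysts (adjusted p = 0.0187) and not in Tet3-null blastocysts (adjusted p = 0.475).

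The 3 subunits of RPA, the protein that coats single-stranded DNA, differed in the size of their change. Rpa1, the large subunit that binds DNA, had 30.3 and 30.01 FPKM in Tet3-null blastocysts and 29.9 and 36.8 FPKM in wild-type ones, against 2.63 and 2.06 FPKM in Tet3-null 2-cell embryos and 4.75 and 4.75 FPKM in wild-type ones. Rpa3, the smallest subunit, had 139 and 137 FPKM in Tet3-null blastocysts and 134 and 143 FPKM in wild-type ones, against 101.5 and 99.9 FPKM in Tet3-null 2-cell embryos and 59.5 and 63.6 FPKM in wild-type ones. Rpa1 was 12.9-fold higher in Tet3-null and 7.02-fold higher in wild-type blastocysts (log2 change 3.23 and 2.57, SE 0.17). Rpa3 was 1.37-fold and 2.255-fold higher, and its Tet3-null call was lost under all 3 other scalings and without either Tet3-null blastocyst library (adjusted p = 0.0655 and 0.057); the change of 0.45 was -0.001 under quantile normalisation and -0.09 with small RNA genes left out of the scaling. Rpa2, the middle subunit, had 84.5 to 112 FPKM in the 4 blastocyst libraries and 87.1 to 127 FPKM in the 4 2-cell libraries and was not called. It was called lower in wild-type blastocysts under quantile normalisation (log2 change -0.58, adjusted p = 0.0262), and lower in both Tet3-null (-0.52, adjusted p = 0.0309) and wild-type blastocysts (-0.76, adjusted p = 0.00543) with small RNA genes left out.

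The polymerases differed by kind. Of polymerase alpha-primase, which starts each strand, Pola2, the regulatory subunit, had 43.8 and 39.2 FPKM in Tet3-null blastocysts and 41.4 and 45.4 FPKM in wild-type ones, against 122 and 166 FPKM in Tet3-null 2-cell embryos and 111 and 109 FPKM in wild-type ones. The blastocyst libraries were all below the 2-cell libraries, 3.47-fold in Tet3-null and 2.53-fold in wild-type (log2 change -1.76 and -1.32, SE 0.17, adjusted p = 8.02e-05 and 0.000366). Its catalytic partner Pola1 had 9.17 to 12.2 FPKM in the 4 blastocyst libraries and 6.89 to 9.30 FPKM in the 4 2-cell libraries and was called higher in wild-type blastocysts (adjusted p = 0.028) and not in Tet3-null blastocysts (adjusted p = 0.366). The primase subunits Prim1 and Prim2 were each called in 1 genotype: Prim1 lower in wild-type blastocysts (log2 change -0.71, adjusted p = 0.034), with 0.35 in Tet3-null (adjusted p = 0.232), and Prim2 higher in Tet3-null blastocysts (1.54, adjusted p = 0.00169), with 0.36 in wild-type (adjusted p = 0.265). Without Tet3-null 2-cell replicate 1 the Tet3-null change of Prim1 was 0.72 and called (adjusted p = 0.0073). The differences between genotypes were not called (adjusted p = 0.257 and 0.258).

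Of polymerase delta, the main polymerase of the lagging strand, Pold1 and Pold2 had a wide gap between stages. Pold1, the catalytic subunit, had 17.1 and 12.8 FPKM in Tet3-null blastocysts and 13.9 and 12.7 FPKM in wild-type ones, against 0.0599 and 0.125 FPKM in Tet3-null 2-cell embryos and 0.02425 and 0.393 FPKM in wild-type ones. Pold2, an accessory subunit, had 77.3 and 60.9 FPKM in Tet3-null blastocysts and 56.4 and 65.4 FPKM in wild-type ones, against 1.71 and 0.476 FPKM in Tet3-null 2-cell embryos and 2.70 and 2.435 FPKM in wild-type ones. Neither gene passed 2.70 FPKM in a 2-cell library, and neither was below 12.7 FPKM in a blastocyst library. The fold of mean FPKM for Pold2 was 63.1 in Tet3-null and 23.7 in wild-type embryos (log2 change 5.12 and 4.11, SE 0.29, adjusted p = 6.14e-06 and 1.78e-05). On the log2 scale, which understates the change of low genes, Pold1 changed by 3.85 and 3.58 (SE 0.23, adjusted p = 6.75e-06 and 1.05e-05). Pold1 passed the filter through the blastocyst libraries alone, so this difference follows in part from the filter. Another delta subunit, Pold3, which is not among the 48 and was named after its values were seen, had 29.55 to 36.45 FPKM in the 4 blastocyst libraries and 32.1 to 40.3 FPKM in the 4 2-cell libraries and was not called in Tet3-null (log2 change -0.02, adjusted p = 0.911) or wild-type embryos (-0.24, adjusted p = 0.224). Of polymerase epsilon, the main polymerase of the leading strand, the catalytic subunit Pole had 4.98 to 7.20 FPKM in the 4 blastocyst libraries and 1.74 to 3.69 FPKM in the 4 2-cell libraries and Pole2, another subunit, 32.1 to 34.8 FPKM in the 4 blastocyst libraries and 8.74 to 14.97 FPKM in the 4 2-cell libraries. Both were called higher in blastocysts of both genotypes, Pole 1.94-fold in Tet3-null and 1.915-fold in wild-type, and Pole2 3.33-fold and 2.30-fold. The calls of Pole were lost in Tet3-null (adjusted p = 0.258) and wild-type embryos (0.313) with small RNA genes left out of the scaling. They were also lost in Tet3-null without Tet3-null 2-cell replicate 2 or either Tet3-null blastocyst library (0.109 to 0.161), and in wild-type without either wild-type 2-cell library or any blastocyst library (0.0548 to 0.217). The accessory epsilon subunits Pole3 and Pole4, also outside the 48, had changes of opposite sign, Pole3 being higher in Tet3-null (log2 change 1.14, adjusted p = 0.000899) and wild-type blastocysts (0.78, adjusted p = 0.00601) and Pole4 lower (-3.92 and -3.27, adjusted p = 1.96e-06 and 4.56e-06).

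Lig1, the DNA ligase that joins Okazaki fragments, had 44.1 and 50.65 FPKM in Tet3-null blastocysts and 44.3 and 53.05 FPKM in wild-type ones, against 0.882 and 1.02 FPKM in Tet3-null 2-cell embryos and 1.755 and 1.14 FPKM in wild-type ones. It was at or below 1.76 FPKM in all 2-cell libraries, and 49.95-fold higher in Tet3-null and 33.6-fold higher in wild-type blastocysts (log2 change 4.63 and 4.35, SE 0.20, adjusted p = 1.77e-06 and 2.59e-06). Fen1, which cuts the flap before ligation, was already expressed in 2-cell embryos, with 47.8 to 56.45 FPKM in the 4 blastocyst libraries and 14.2 to 18.96 FPKM in the 4 2-cell libraries (3.48-fold higher in Tet3-null and 3.09-fold in wild-type blastocysts). Rnaseh2a, the catalytic subunit of the RNase H2 that removes RNA from DNA, had 27.2 to 32.4 FPKM in the 4 blastocyst libraries and 9.98 to 17.01 FPKM in the 4 2-cell libraries, and was higher in blastocysts of both genotypes, a call that was lost in wild-type with small RNA genes left out of the scaling (log2 change 0.30, adjusted p = 0.125). Wdhd1, which ties polymerase alpha to the helicase, had 9.375 to 11.7 FPKM in the 4 blastocyst libraries and 6.42 to 10.85 FPKM in the 4 2-cell libraries and was called higher in Tet3-null blastocysts (adjusted p = 0.0273) and not in wild-type blastocysts (adjusted p = 0.458).

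All 4 genes of nucleotide supply were higher in blastocysts of both genotypes. Tk1, the thymidine kinase of the salvage route, had 352 and 337 FPKM in Tet3-null blastocysts and 315 and 298 FPKM in wild-type ones, against 44.3 and 40.9 FPKM in Tet3-null 2-cell embryos and 46.5 and 52.6 FPKM in wild-type ones. The fold of mean FPKM for Tk1 was 8.10 in Tet3-null and 6.19 in wild-type embryos. Rrm2, the small subunit of ribonucleotide reductase, had 576 to 679 FPKM in the 4 blastocyst libraries and 241 to 267.5 FPKM in the 4 2-cell libraries, and Rrm1, the large subunit, 76.1 to 114 FPKM in the 4 blastocyst libraries and 16.2 to 19.8 FPKM in the 4 2-cell libraries. Tyms, which makes thymidylate, had 57.1 to 60.5 FPKM in the 4 blastocyst libraries and 9.80 to 14.4 FPKM in the 4 2-cell libraries. Rrm2 changed by 2.41-fold and 2.49-fold, Rrm1 by 6.20-fold and 4.80-fold, and Tyms by 5.11-fold and 4.35-fold in Tet3-null and wild-type embryos.

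Among the 48 genes, the subunits of several complexes were closer in level to each other in blastocysts than in 2-cell embryos. Over the 4 libraries of a stage, the highest ORC subunit was 9.15 times the lowest in blastocysts and 98.2 times in 2-cell embryos, Orc6 being the highest at both stages. For RPA the ratio was 4.35 in blastocysts and 30.3 in 2-cell embryos, and for polymerase alpha-primase 4.69 and 15.9. Polymerases delta and epsilon are separate enzymes, and over their listed subunits together it was 11.6 and 81.7. In 2-cell embryos this set Pole2 (mean 12.3 FPKM) against Pold1 (0.15 FPKM), so it is not a spread within either enzyme. The epsilon subunits Pole and Pole2 had means of 5.63 and 33.3 FPKM in blastocysts and 2.92 and 12.3 FPKM in 2-cell embryos. For the delta subunits Pold1 and Pold2 these were 14.1 and 65.0 FPKM, and 0.15 and 1.83 FPKM. For MCM2-7 (4.52 and 4.56), GINS (9.79 and 9.07) and RFC (12.4 and 11.5) the ratio was about the same at both stages, although single subunits changed places. These ratios are descriptions and were not tested.

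**Figure D3:**
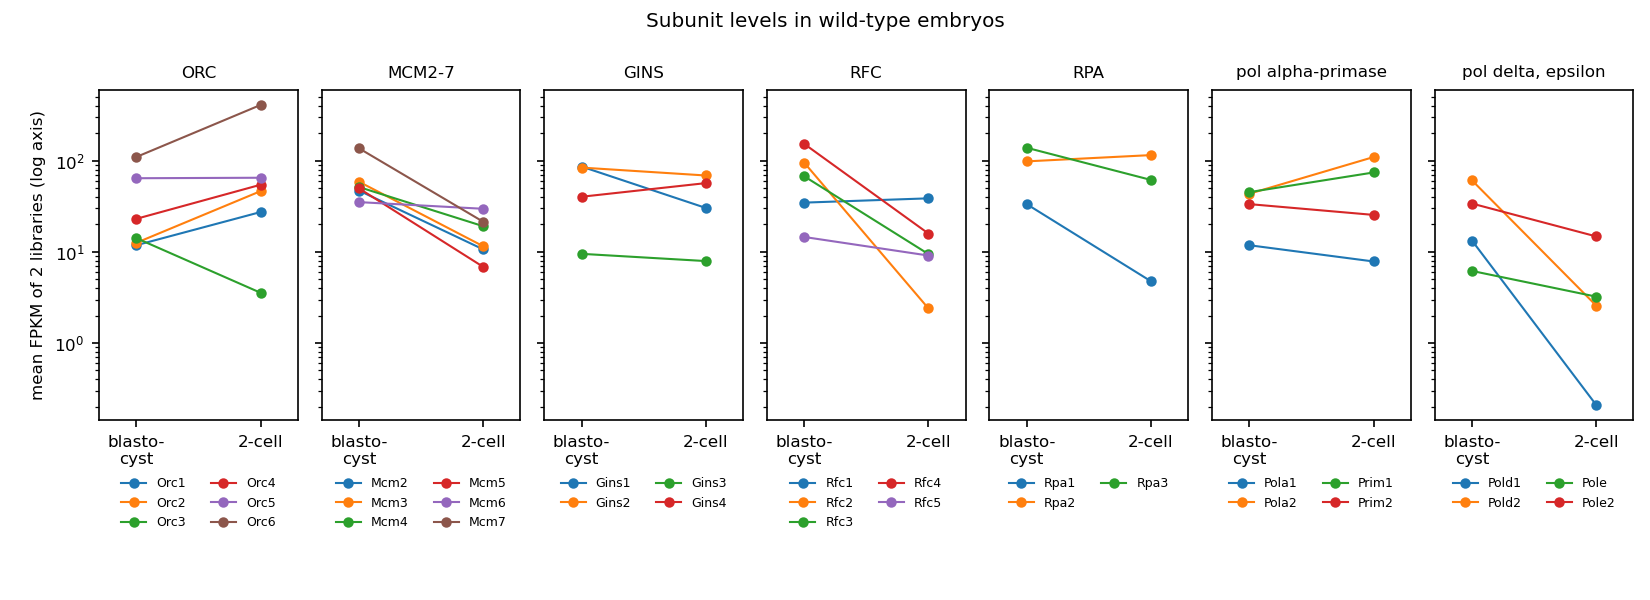
Mean FPKM of each subunit in wild-type embryos (2 libraries a stage, log axis), with blastocysts left and 2-cell embryos right. Each complex has its own panel, except that the separate enzymes polymerase delta and polymerase epsilon share a panel. In ORC, RPA, polymerase alpha-primase and polymerases delta and epsilon the lines fan out towards the 2-cell stage, and in ORC and polymerase alpha-primase some lines rise to the right while others fall.

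Between 2-cell embryos from Tet3-null and from wild-type oocytes, 2 of the 48 replication genes were called, Rpa3 higher and Rfc4 lower in Tet3-null. This is 4.17% of the list, close to the 2.72% of all genes called (0.613% higher and 2.1% lower). Rpa3 had 101.5 and 99.9 FPKM in Tet3-null embryos, against 59.5 and 63.6 FPKM in wild-type embryos. Rfc4 had 9.01 and 5.81 FPKM in Tet3-null embryos, against 15.3 and 16.55 FPKM in wild-type embryos. The groups did not overlap for either gene. Rpa3 was 1.64-fold higher (log2 change 0.70, SE 0.12, adjusted p = 0.039) and Rfc4 2.15-fold lower (log2 change -1.03, SE 0.20, adjusted p = 0.0473) in Tet3-null embryos. Both calls held when Tet3-null replicate 2 was left out (log2 change 0.71 and -0.76, adjusted p = 0.0432 and 0.0436). Both calls are near the threshold: Rfc4 was lost under median-of-ratios scaling (adjusted p = 0.0759), and both were lost in a fit of the 4 2-cell libraries alone (adjusted p = 0.376 for Rpa3 and 0.383 for Rfc4). They were also lost when either wild-type 2-cell library or any blastocyst library was left out, with an adjusted p of 0.107 to 0.127 for Rpa3 and of 0.12 to 0.166 for Rfc4.

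Several other genes lay just outside the threshold in 2-cell embryos. Gins2, a GINS subunit, had 44.65 and 37.3 FPKM in Tet3-null embryos, against 64.4 and 73.4 FPKM in wild-type embryos (log2 change -0.74, SE 0.14, adjusted p = 0.0501). Rpa1 had 2.63 and 2.06 FPKM in Tet3-null embryos, against 4.75 and 4.75 FPKM in wild-type embryos (-0.79, SE 0.17, adjusted p = 0.061). Thus the large and the smallest RPA subunits had changes of opposite sign between genotypes, of which that of Rpa3 was called. Rnaseh2a (-0.64, adjusted p = 0.0708) and Mcm7 (-0.52, adjusted p = 0.0796) came next. The other genes with the lowest estimates were Gins3, with 7.03 and 1.34 FPKM in Tet3-null and 7.66 and 8.19 FPKM in wild-type (-1.04, SE 0.50, adjusted p = 0.26), and Prim2, with 18.2 and 10.1 FPKM in Tet3-null and 25.45 and 25.4 FPKM in wild-type (-0.86, adjusted p = 0.128). The low mean of Gins3 came from Tet3-null replicate 2, and without that library its log2 change was -0.15. Mcm10 had the same pattern, with 8.15 and 1.82 FPKM in Tet3-null and 8.20 and 7.68 FPKM in wild-type. At the upper end, after Rpa3, were Rfc2 (5.87 and 2.165 FPKM in Tet3-null against 1.78 and 3.01 FPKM in wild-type, 0.48, adjusted p = 0.444) and Pola2 (122 and 166 FPKM in Tet3-null against 111 and 109 FPKM in wild-type, 0.37, adjusted p = 0.25). The Tet3-null libraries of Rfc2 lay on both sides of the wild-type mean.

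**Figure D4:**
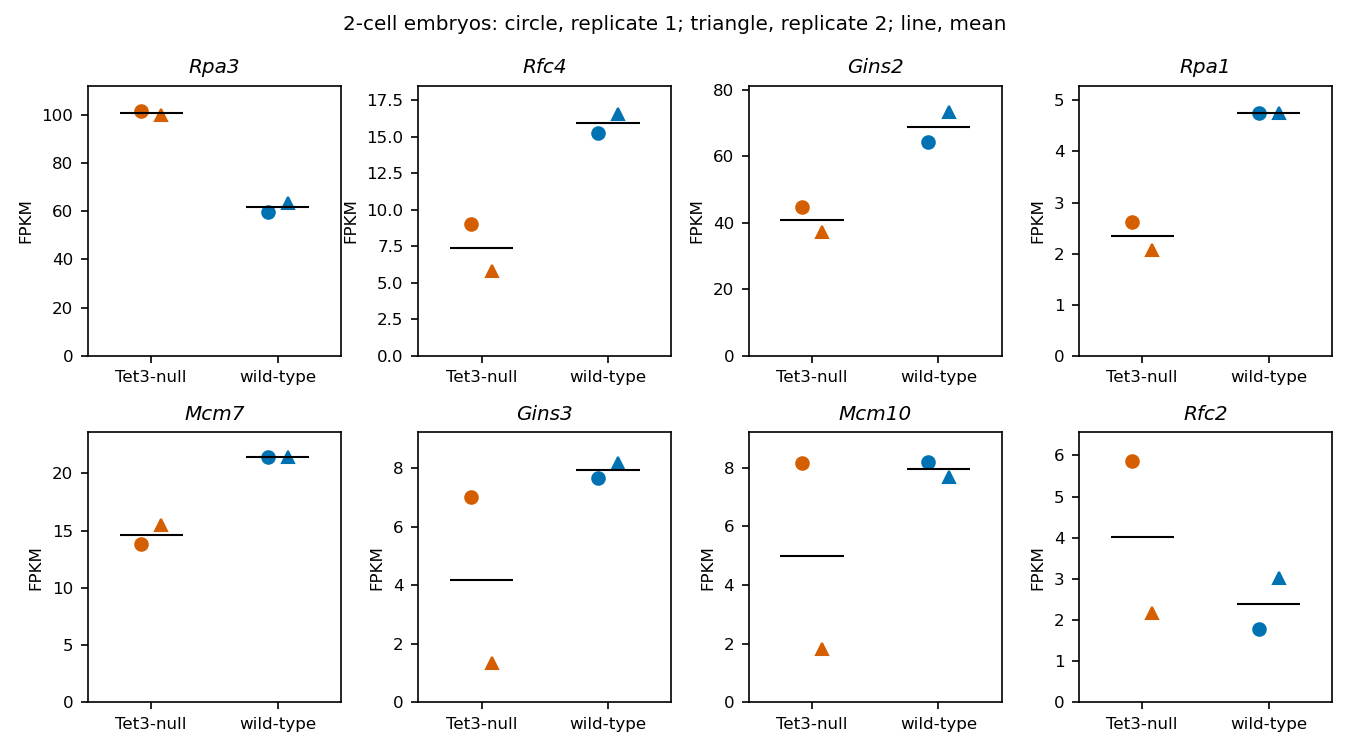
FPKM of 8 replication genes in single 2-cell libraries, Tet3-null left and wild-type right, with circles for replicate 1, triangles for replicate 2 and a line at the mean. Rpa3 is higher and Rfc4, Gins2, Rpa1 and Mcm7 lower in both Tet3-null libraries, whereas Gins3 and Mcm10 are low in Tet3-null replicate 2 and Rfc2 overlaps.

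Over the whole list the change in 2-cell embryos was close to that of all genes. The median log2 change was -0.24 for the 48 genes and -0.17 for all genes, and 36 of the 48 estimates were negative (75%, against 67.6% of all genes). With median-of-ratios scaling the median of all genes moved to 0.01, that of the list to -0.05, and 25 of 48 were negative (52.1%, against 49% of all genes). Both Tet3-null libraries were below both wild-type libraries for 21 of the 48 genes (43.8%, against 34.9% of all genes), and above them for 4 (8.33%, against 12.6%). The 4 GINS subunits all had negative estimates (-1.04 to -0.36), also under the 3 other scalings, and none was called in the main test. In the main test the 4 genes of polymerases delta and epsilon and the 4 of the lagging strand were also all negative, but not under every scaling. Tet3-null replicate 1 was near wild-type for Gins1 (30.2 FPKM, against 30.1 and 30.6 FPKM) and Gins4 (49.8 FPKM, against 50.1 and 63.5 FPKM). Replicate 2 had 13.6 and 38.1 FPKM for these genes. Tet3-null replicate 2 was the lowest of the 4 2-cell libraries for 27 of the 48 genes (56.2%), against 42.5% of all genes. Leaving out the other Tet3-null library, replicate 1, gave 19 calls in the list (39.6%, against 25.5% of all genes), 17 of them lower (35.4%, against 19.2%). Leaving out replicate 2 gave 2 (4.17%, against 2.32%). Marker genes of the 2-cell stage summed to 1394 and 1926 FPKM in Tet3-null and 1266 and 1041 FPKM in wild-type embryos, 2 of the 6 being higher in Tet3-null without overlap and none at 0 in all 4 libraries. Oocyte markers summed to 1748 and 2328 FPKM in Tet3-null and 1739 and 1489 FPKM in wild-type embryos, with 1 of 5 higher and 1 lower without overlap. Their part in the result was not tested.

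In blastocysts no replication gene was called between genotypes (0 of 48, with 0.0664% of all genes called in limma), and 1 of the 48 had an unadjusted p under 0.05 (2.08%, against 5.46% of all genes). That gene was Gins4, with 28.5 and 27.8 FPKM in Tet3-null and 41.1 and 39.4 FPKM in wild-type blastocysts (log2 change -0.50, SE 0.18, adjusted p = 0.86). Its groups did not overlap. The next lowest estimates were those of Cdt1 (26.8 and 34.3 FPKM in Tet3-null against 47.4 and 38.4 FPKM in wild-type, -0.48) and Pola1 (9.17 and 9.36 FPKM in Tet3-null against 12.2 and 11.5 FPKM in wild-type, -0.32). The highest were those of Rrm1 (114 and 105 FPKM in Tet3-null against 76.1 and 96.8 FPKM in wild-type, 0.34), Cdc45 (54.5 and 50.1 FPKM in Tet3-null against 38.6 and 44.7 FPKM in wild-type, 0.33) and Prim2 (43.8 and 39.2 FPKM in Tet3-null against 28.1 and 38.7 FPKM in wild-type, 0.32). Rpa3 and Rfc4, the genes called in 2-cell embryos, had log2 changes of -0.01 and 0.25 here. The median change was 0.05 for the list and -0.02 for all genes.

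Both Tet3-null blastocyst libraries were above both wild-type libraries for 19 of the 48 genes (39.6%, against 19% of all genes) and below them for 8 (16.7%, against 25.3%). Wild-type replicate 1 was the lowest of the 4 libraries for 23 of the 48 genes (47.9%), against 20.1% of all genes. Without it the median change of the list was -0.01. Trophectoderm markers summed to 2961 and 2716 FPKM in Tet3-null and 4496 and 4178 FPKM in wild-type blastocysts, 3 of the 5 being lower in Tet3-null without overlap and none at 0. Epiblast markers summed to 242 and 242 FPKM in Tet3-null and 229 and 225 FPKM in wild-type blastocysts. Their part in the result was not tested.

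**Figure D5:**
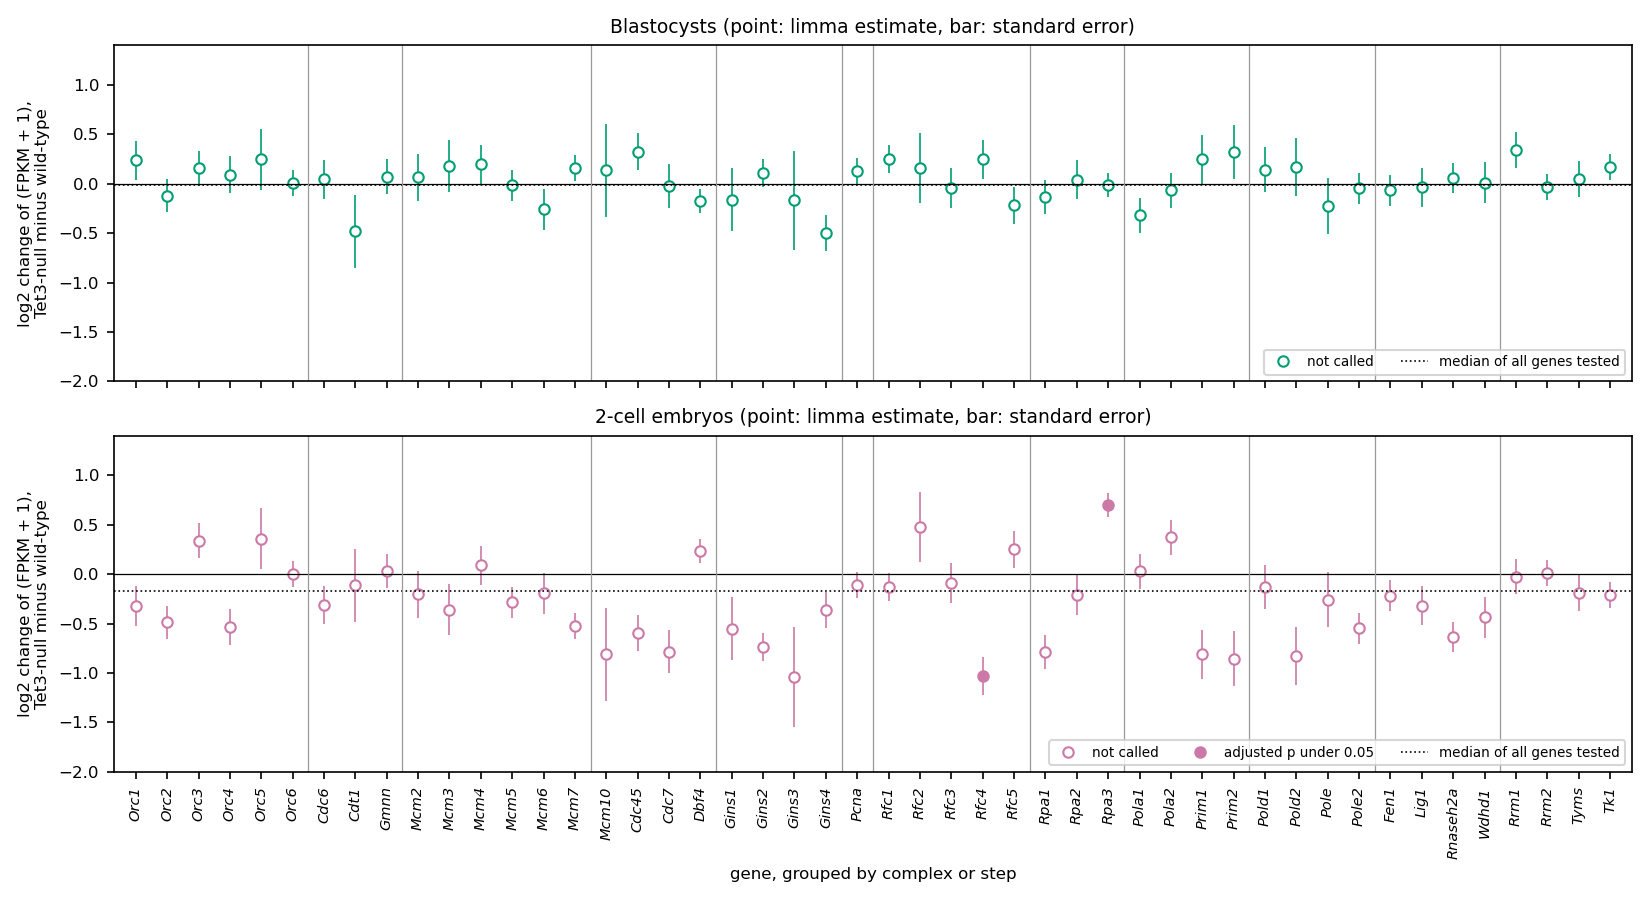
Change between genotypes for each of the 48 genes, as the limma estimate of log2(FPKM + 1) in Tet3-null minus wild-type with its standard error, for blastocysts (top) and 2-cell embryos (bottom); the dotted line is the median of all genes tested. Rpa3 and Rfc4 in 2-cell embryos are the filled, called points, and blastocyst estimates lie between -0.50 and 0.34.

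The genotype effect itself was compared between stages, as blastocyst minus 2-cell. No replication gene was called (0 of 48, with 0.14% of all genes called in limma), and 13 had an unadjusted p under 0.05 (27.1%, against 14.4% of all genes). The lowest adjusted p was that of Rfc4, 0.148 (difference 1.28, SE 0.28), followed by Rpa3 at 0.175 (difference -0.71, SE 0.17). The genes called between stages in 1 genotype, Pcna, Wdhd1, Rfc5, Pola1, Prim1, Gins2 and Prim2, are therefore not shown to differ between genotypes. The calls of the first 5 were also each lost without either blastocyst library of the genotype in which they were made (adjusted p = 0.0538 to 0.163). Those of Gins2 and Prim2, made in Tet3-null embryos, were kept under every alternative. Leaving out Tet3-null 2-cell replicate 1 gave 12 calls (25%, against 12.6% of all genes), and leaving out any other single library gave 0.

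Some values may hold reads of neighbouring genes, because the library kit does not mark strand. In the GENCODE M21 annotation, exons of 16 of the 48 genes overlap exons of a gene on the opposite strand. They include all ORC genes called lower in blastocysts. Orc1 shares 376 bases with Gm12743, Orc2 1150 with Nif3l1, Orc4 446 with Acvr2a and 136 with Mbd5, and Orc6 171 with Vps35. Fen1 shares 1909 bases with Gm10143. The part of these neighbours in the stage differences was not tested. Exons of Rfc4 share 194 bases with Eif4a2, an initiation factor gene that had 152 and 187 FPKM in Tet3-null embryos, against 154 and 142 FPKM in wild-type embryos. Exons of Rfc2 share 952 bases with Lat2 (7.235 to 14.0 FPKM in the 2-cell libraries), and those of Gins2 share 2758 bases with Gse1 (1.90 to 2.975 FPKM). Tyms and Pcna also have pseudogenes named after them, 3 in all, and how shared reads were counted is not given in the sources used here.

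A second list of 50 genes, drawn from knowledge of replication and its control, was described beside the first. It holds accessory polymerase subunits, fork protection and chromatin assembly factors, nucleotide enzymes, cyclins and E2F factors. Of these 49 were listed and 48 tested. E2f3 reached 1 FPKM in blastocyst libraries alone, and Mcm9 and E2f2 in 2-cell libraries alone. E2f8 reached it in all 4 blastocyst libraries and 1 library of the 2-cell stage, and E2f7 in all 4 2-cell libraries and 1 blastocyst library. These genes passed the filter only through the stage where they are higher. Their calls between stages, counted below, follow in part from the filter. In Tet3-null embryos 14 were higher (29.2%, against 38.9% of all genes) and 20 lower in blastocysts (41.7%, against 35.1%), with a median log2 change of -0.24, and in wild-type embryos 15 were higher (31.2%, against 35.8%) and 21 lower (43.8%, against 38.4%), with a median of -0.32. Rnaseh2b, a subunit of RNase H2, had 47.99 and 49.95 FPKM in Tet3-null blastocysts and 45.55 and 45.8 FPKM in wild-type ones, against 1.45 and 0 FPKM in Tet3-null 2-cell embryos and 1.275 and 2.59 FPKM in wild-type ones. Pold4, the small subunit of polymerase delta, had 16.9 to 23.7 FPKM in the 4 blastocyst libraries and 0.753 to 4.30 FPKM in the 4 2-cell libraries, and Timeless, a fork protection factor, 22.4 to 25.1 FPKM in the 4 blastocyst libraries and 1.77 to 2.83 FPKM in the 4 2-cell libraries. These were the 3 largest increases in wild-type blastocysts (4.03, 3.22 and 2.80 on the log2 scale). The 3 largest decreases were those of the transcription factor gene E2f5 (-5.55), with 0.863 to 2.06 FPKM in the 4 blastocyst libraries and 97.3 to 228 FPKM in the 4 2-cell libraries, of Rrm2b (-3.96), an alternative small subunit of ribonucleotide reductase, with 0.8235 to 1.055 FPKM in the 4 blastocyst libraries and 26.75 to 37.1 FPKM in the 4 2-cell libraries, and of Pole4 (-3.27), an accessory subunit of polymerase epsilon, with 7.47 to 11.5 FPKM in the 4 blastocyst libraries and 111 to 148 FPKM in the 4 2-cell libraries. Rrm2 and Rrm2b, 2 forms of the same subunit, therefore had called changes of opposite sign in both genotypes.

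Between genotypes, E2f6, which encodes a repressor of the E2F family, was the only gene of the second list called in 2-cell embryos. This is 2.08% of the 48 genes tested, close to the 2.72% of all genes called. E2f6 had 1.46 and 3.08 FPKM in Tet3-null embryos, against 0 and 0.336 FPKM in wild-type embryos (log2 change 1.45, SE 0.28, adjusted p = 0.0481), and 4.76 to 6.11 FPKM in the 4 blastocyst libraries. It was listed at 0 in wild-type replicate 1, and the call was lost without Tet3-null replicate 2 (adjusted p = 0.0764). The median change of the second list in 2-cell embryos was -0.20, against -0.17 for all genes. None of its genes was called in blastocysts (0 of 48, with 0.0664% of all genes called).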

How the data were processed

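RNA of whole embryos was measured in 8 pools. Per the labels' protocols, cDNA was made and amplified straight from embryo lysates (SMARTer Ultra Low Input), and after shearing a DNA library kit without strand marking (NEBNext Ultra) was used. The values deposited by the authors are FPKM per gene symbol, from Cufflinks 2.2.0 after TopHat2 2.0.10 with Bowtie2 2.1.0 (mm9), per the submitters' processing notes. The annotation and settings were not given in the sources used here, and no read totals are known, so no counting interval is given.

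From these files log2(FPKM + 1) was computed, a scale that understates the change of low genes. The 13549 genes that reached 1 FPKM in 2 or more of the 8 libraries were fitted in limma 3.58.1 (R 4.3.3) with 4 group means, all libraries sharing the spread (4 residual and 3.07 prior degrees of freedom), and an intensity trend. The 2 libraries of a group correlated at 0.982 and 0.977 in Tet3-null and wild-type blastocysts, and at 0.943 and 0.963 in 2-cell embryos. A shared spread may thus be too small for 2-cell embryos and too large for blastocysts. Its effect on the p-values was not tested. Tests were two-sided, with Benjamini-Hochberg adjustment over all 13549 genes. The fit was tested on simulated data. A permutation test of 2 libraries against 2 cannot go below p = 0.333 and was not used. SD values and folds of mean FPKM are over 2 libraries a group.

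Named were, for each comparison between genotypes, the called genes and the 3 highest and 3 lowest estimates, for each comparison between stages the 6 highest and 6 lowest, the genes of each complex, and any just outside the threshold, which were picked after their values were seen. The members and lists were chosen with earlier results of these data known. Alternatives changed the pseudocount, filter, scaling, trend, block, samples fitted, and left out each library. Promoter sequences are from RefSeq (GRCm38.p6) and exon overlaps from GENCODE M21, matched by symbol; no coordinates of the authors' build mm9 were used.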

Additional observations from a re-analysis of the deposited data

How the results depend on the processing

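Between stages, 36 to 40 of the 48 genes were called in Tet3-null embryos under alternatives that kept every library compared (40 in the main test). That is 75% to 83.3%, against 49.9% to 80.6% of all genes. In wild-type embryos it was 35 to 40 (39 in the main test), or 72.9% to 83.3%, against 50.8% to 79.9% of all genes. The lowest share of all genes was in each case that with no filter. The genes called were not all the same ones, and some fits without 1 library called fewer. Of the main calls, 26 of 31 higher and 5 of 9 lower in Tet3-null, and 23 of 29 higher and 8 of 10 lower in wild-type, were kept under every alternative. Leaving small RNA genes out of the scaling, with all libraries set to the same FPKM sum, moved the median of all genes to -0.32 in Tet3-null and -0.51 in wild-type. How much of this came from the sums, which differed between stages in the main test, was not tested. The list then had 26 higher (54.2%, against 32.4% of all genes) and 10 lower calls (20.8%, against 43.3%) in Tet3-null embryos. In wild-type embryos it had 23 higher (47.9%, against 28.6%) and 12 lower (25%, against 47.4%). The comparison of Tet3-null and wild-type blastocysts gave 0 calls in the list under every alternative. The 2 calls in 2-cell embryos depended on the processing. Their count was 1 with a pseudocount of 0.1, with no filter, with median-of-ratios scaling and with quantile normalisation. That is 2.08%, against 1.1% to 1.79% of all genes. The count was 3 with a filter at 5 FPKM (6.25%, against 3.54%) and 4 with small RNA genes left out (8.33%, against 5.18%). With no intensity trend, with the 4 libraries alone and with a replicate block it was 0 (2.15%, 0.0221% and 0.229% of all genes). Leaving out single libraries gave 0 to 19, 19 when Tet3-null replicate 1 was absent, 2 when replicate 2 was, and 0 without any other library, blastocysts included, where the fit has fewer libraries. The difference of the genotype effect between stages gave 0 to 12 calls when single libraries were left out, and 0 otherwise. Among all genes, the 2-cell comparison gave 368 calls, and 3 to 3453 under the alternatives. The adjusted p of Rpa3 ranged from 0.0109 to 0.376 and that of Rfc4 from 0.00365 to 0.383. The estimates of 2 genes that were not called changed sign with 1 library left out: Rfc2 in 2-cell embryos ranged from -0.079 to 1.04, and Tet3 in blastocysts from -0.42 to 0.005. The cause of these changes was not tested.

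Replicate numbers are shared between groups, but same-numbered libraries did not deviate together (correlation -0.08 in 2-cell embryos and 0.02 in blastocysts). With 2 libraries a group this cannot show whether same-numbered libraries shared a collection or preparation. With the replicate block the list had 38 calls between stages in Tet3-null embryos (79.2%, against 72.9% of all genes). In wild-type embryos it had 36 (75%, against 73.2%). Of all genes, 31 were called in the 2-cell comparison (0.229%). Read depth is unknown and limits the genes near 1 FPKM, such as Pold1, Lig1 and E2f6, most.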
